A study of Mus musculus with 16 samples.

Results

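Type I interferon-stimulated genes are the genes a cell switches on after an interferon alpha or beta signal, and they are described here in mouse classical dendritic cells (DCs) of 2 subsets, 2 sources and 2 Ciita genotypes. The group holds 41 listed genes of the antiviral programme, from the transcription factors Irf7, Irf9 and Stat2 to effectors such as the Ifit, Oas and Mx families. Each gene was read from the array probe set that carries its symbol and no other, and from the one with the highest mean where several existed. In this way 39 of the 41 genes were measured, each by 1 probe set, among 19938 genes tested. Isg15, whose probe set is shared with the pseudogene Gm9706, and Ifi44 were not used. The list follows what is known of the pathway, and it was drawn up with earlier results of these data known.

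The data are 16 arrays of the type Affymetrix Mouse Gene 1.0 ST, 2 for each of 8 groups. All mice were of the B6 strain with one GFP allele at Zbtb46 (Zbtb46 GFP/+), and were either Ciita -/- (KO) or Ciita +/+ (WT). The Zbtb46 reporter marks classical DCs, and the WT mice carry it too. Cells were sorted by CD24 or by CD172a (Sirpa), surface proteins that mark cDC1 and cDC2 respectively, from homeostatic spleens with no treatment named in the labels. The same sorts were made from bone marrow after 9 days of culture in 5% Flt3l, gamma interferon and 4 hours of LPS. The gamma interferon lasted 22 hours per the growth protocol and 16 hours per the series design. Per the source names, each of 8 mice gave 1 CD24+ and 1 CD172a+ array, so that every genotype has 2 mice per tissue. The ages and sexes of the mice and the deleted part of Ciita are not given in the sources used here.

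Type I interferons bind the receptor pair Ifnar1 and Ifnar2, which signals through the kinases Jak1 and Tyk2 to the factor Stat2. Stat2 and Irf9 act in the complex ISGF3, which binds a promoter sequence called the interferon-stimulated response element (ISRE). Gamma interferon acts mainly through another promoter element, the gamma-activated site (GAS), and shares many of its target genes with type I interferon, while LPS makes cells secrete interferon beta. In DCs the programme serves antiviral defence and T cell priming, and a low tonic level is kept without infection.

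All values are log2 signals as deposited, where a difference of 1 is a change of 2-fold. Where 4 values are given for a tissue and subset, they are WT replicates 1 and 2 and then KO replicates 1 and 2. Differences are given with the standard error (SE) and with p adjusted over all 19938 genes, from limma fits. "Called" means an adjusted p under 0.05. Since signals of different probe sets are not on one scale, genes are compared by their differences between arrays and not by their levels. In RNA of sorted populations, fewer cells of a type that expresses a gene and less RNA per cell cannot be told apart.

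The sorted cells carried the markers of their labels in spleen. The mean log2 signal of 9 cDC1 markers was 12.11 to 12.34 in spleen CD24+ arrays and 8.60 to 8.76 in spleen CD172a+ arrays, and that of 10 cDC2 markers was 7.74 to 8.01 against 10.12 to 10.21. In culture the mean of the cDC1 markers still stood apart (10.90 to 11.25 against 8.60 to 8.84). Of these markers only Batf3 ran the other way in culture. Its WT and KO group means were 10.94 and 11.25 in cultured CD24+ and 11.69 and 11.95 in cultured CD172a+ cells. The mean of the cDC2 markers lay at 6.73 to 6.84 in CD24+ and 7.02 to 7.30 in CD172a+ arrays of culture. That mean holds Clec12a, which ran the other way in both tissues (WT and KO group means of 9.36 and 8.98 in cultured CD24+ and 6.80 and 6.53 in cultured CD172a+ cells). Sirpa, the sort marker, kept a wide gap in culture (8.41 and 8.76 against 11.22 and 11.23), and so did Irf4 (8.78 and 9.45 against 10.81 and 10.88). Most of the other markers did not. Their cultured WT group means, CD24+ against CD172a+, were close for Clec10a (4.80 against 5.00), Mgl2 (5.56 against 5.60) and Esam (6.56 against 6.53). The same held for Csf1r (6.68 against 6.72) and Cd209a (6.28 against 6.49). Itgam (6.95 against 8.02) and Clec4a4 (4.29 against 5.54) kept a smaller gap in WT. Array medians were 7.29 to 7.32 in spleen and 6.85 to 6.92 in culture. Ciita itself read 10.97 to 11.40 in the WT and 10.90 to 11.28 in the KO spleen arrays, and 10.15 to 10.85 against 7.17 to 9.70 in culture. H2-Ab1, a class II chain that Ciita drives, was lower in KO than in WT in all 4 tissue and subset pairs (13.97 to 14.07 in WT and 11.26 to 12.18 in KO spleen arrays, 13.68 to 13.85 and 9.38 to 11.63 in culture), with an adjusted p of 0.00929 or less in each pair. Ciita is thus not a check of the genotype in spleen, where its signal did not separate the labels, and whether its probes lie in the deleted part is not known here.

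Promoter sequence was available from RefSeq (build GRCm38.p6) for 31 of the 39 genes, as 250 bases before to 50 after each annotated start site. Only the 250 bases before the start site were searched. The ISRE was searched as GAAANNGAAA on both strands, which also finds TTTCNNTTTC. It occurred in 9 of the 31 genes (29.0%), against 936 of all 27025 genes with a promoter entry (3.46%) and 3.4% of the genes tested here that have one. The 9 were Bst2, Ddx60, Ifit1, Ifit3, Oas3, Rsad2, Slfn5, Stat2 and Trim30a. The GAS, searched as TTCNNNGAA, occurred in 3 of 31 genes (Bst2, Ifit2 and Isg20; 9.68%), against 8.13% of all genes with an entry. In Bst2 a match of each motif overlapped. A match is only a run of letters, and its absence says only that these letters are not in those 250 bases.

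The stretches below, 5′ to 3′ on the strand of each gene, show, among genes with an entry, those with the largest subset differences in spleen (Ifit3 and Oasl2), those with the largest rise in culture averaged over both subsets (Ifit2 and Oasl1) and the factors Irf7 and Stat2. Ifit1 and Ddx60 were added after the search because each holds a pair of matches, which do not overlap, and was lower in spleen CD24+ cells. The printed stretches thus cannot show how matches go with that direction. Bst2, higher in spleen CD24+ cells, also holds a pair of matches, which overlap, and is not shown. Capitals mark the ISRE matches, and genes without one are shown for the last 110 bases before the start site.
Ifit3: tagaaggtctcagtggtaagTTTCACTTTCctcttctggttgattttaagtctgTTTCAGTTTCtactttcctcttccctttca
Ifit1: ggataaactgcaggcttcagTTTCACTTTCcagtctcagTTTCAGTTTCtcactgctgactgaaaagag
Ddx60: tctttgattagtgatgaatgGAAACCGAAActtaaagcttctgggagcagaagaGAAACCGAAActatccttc
Stat2: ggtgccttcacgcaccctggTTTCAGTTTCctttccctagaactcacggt
Oasl2: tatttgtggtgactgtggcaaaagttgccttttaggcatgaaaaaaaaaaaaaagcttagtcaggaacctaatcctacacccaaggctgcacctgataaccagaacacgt
Ifit2: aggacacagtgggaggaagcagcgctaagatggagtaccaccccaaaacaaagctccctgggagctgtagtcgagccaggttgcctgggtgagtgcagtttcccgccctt
Oasl1: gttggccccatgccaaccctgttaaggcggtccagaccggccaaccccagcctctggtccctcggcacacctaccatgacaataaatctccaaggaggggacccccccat
Irf7: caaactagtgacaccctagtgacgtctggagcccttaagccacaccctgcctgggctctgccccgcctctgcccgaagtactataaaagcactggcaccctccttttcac
The Ifit3 stretch lies at chr19:34583353-34583436 (plus strand), with matches that start 156 and 122 bases before the start site. That of Ifit1 lies at chr19:34640765-34640833 (plus strand), with matches 104 and 85 bases before it. For Ddx60 the stretch is chr8:61928014-61928086 (plus strand), with matches 53 and 19 bases before the start, and for Stat2 it is chr10:128270256-128270305 (plus strand), with a match 222 bases before it. The windows of Oasl2 (chr5:114896824-114896933, plus strand), Ifit2 (chr19:34550584-34550693, plus strand), Oasl1 (chr5:114923130-114923239, plus strand) and Irf7 (chr7:141266425-141266534, minus strand) held none. Ifit2, Ifit3 and Ifit1 thus lie together on chromosome 19, and Oasl2 and Oasl1 beside each other on chromosome 5. By their behaviour in resting spleen cells, the match was present in 6 of 14 genes lower in CD24+ than in CD172a+ cells, 2 of 6 higher and 1 of 11 not called.

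In resting spleen, most of the programme differed between the subsets, and the larger differences were all in favour of the CD172a+ cells. Of the 39 genes, 19 were called lower and 8 higher in CD24+ than in CD172a+ cells, while 13.4% and 15.6% of all genes tested were called lower and higher. The median difference was -0.16, against 0.03 over all genes. The lower genes reached -4.63 (Rtp4) and the higher ones 1.14 (Mx1). Leaving out any 1 spleen array kept 26 of the 27 calls, the exception being Irf9.

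Of the factors that transmit the signal, Stat2 and Irf9 were lower in spleen CD24+ cells, Irf9 only slightly, and Irf7 was not called. Stat2, a subunit of ISGF3, read 9.79, 10.02, 9.99 and 10.03 in spleen CD24+ cells and 10.48, 10.63, 10.81 and 10.79 in spleen CD172a+ cells. The subsets did not overlap, and the difference was -0.72 ± 0.06, adjusted p = 2.12e-06. Irf9, the DNA-binding part of ISGF3, read 9.96, 9.91, 10.12 and 10.13 in spleen CD24+ cells and 10.13, 10.03, 10.29 and 10.32 in spleen CD172a+ cells. The arrays overlapped (-0.16 ± 0.05, adjusted p = 0.0175), and it no longer passed without spleen CD172a+ KO replicate 2 (-0.16), CD172a+ WT replicate 1 (-0.14) or CD24+ WT replicate 2 (-0.15). Irf7, the factor that amplifies interferon alpha production, read 11.13, 11.06, 11.29 and 11.28 in spleen CD24+ cells and 10.95, 10.96, 11.24 and 11.37 in spleen CD172a+ cells, with no called difference (0.06 ± 0.06, adjusted p = 0.539).

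All 3 Ifit genes, which encode proteins that bind viral RNA, were lower in CD24+ cells. Ifit3 read 7.81, 7.74, 7.66 and 7.69 in spleen CD24+ cells and 10.31, 10.28, 11.28 and 11.06 in spleen CD172a+ cells. No CD24+ array came near any CD172a+ array, and the difference was -3.01 ± 0.10, adjusted p = 4.59e-10, which is 8.04-fold. Ifit1, which recognises RNA whose 5′ cap lacks methylation, read 6.46, 6.08, 6.57 and 6.83 in spleen CD24+ cells and 9.09, 8.94, 9.53 and 9.65 in spleen CD172a+ cells. Again the groups did not overlap (-2.82 ± 0.12, adjusted p = 2.54e-09). Ifit2 read 7.07, 7.18, 7.57 and 7.77 in spleen CD24+ cells and 8.21, 8.20, 9.13 and 8.61 in spleen CD172a+ cells, a smaller gap that still left the groups apart (-1.14 ± 0.10, adjusted p = 2.17e-06). Ifit3 has a near-identical neighbour, Ifit3b, and whether its probes also read that copy was not tested.

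The Oas family went in both directions. Oas2 and Oas3 make 2′-5′ oligoadenylates, the messengers that activate RNase L. Oas2 read 7.28, 6.71, 7.01 and 6.95 in spleen CD24+ cells and 10.15, 10.36, 10.69 and 10.60 in spleen CD172a+ cells, so that every CD172a+ array lay above every CD24+ array (-3.46 ± 0.17, adjusted p = 1.13e-08). Oas3 read 7.28, 7.19, 7.63 and 7.48 in spleen CD24+ cells and 8.59, 8.85, 8.86 and 8.94 in spleen CD172a+ cells, also without overlap (-1.42 ± 0.10, adjusted p = 2.88e-07). Oasl2, an Oas-like protein, was among the clearest differences of the group: it read 7.65, 7.61, 7.93 and 7.94 in spleen CD24+ cells and 10.48, 10.34, 10.81 and 10.92 in spleen CD172a+ cells, a gap of -2.86 ± 0.06 (adjusted p = 1.04e-11). Its neighbour Oasl1, which is known to restrain translation of Irf7, went the other way and was slightly higher in CD24+ cells, with 8.80, 8.73, 8.86 and 9.27 in spleen CD24+ cells and 8.31, 8.31, 8.77 and 8.72 in spleen CD172a+ cells. The lowest CD24+ array lay below the highest CD172a+ array, and the difference was 0.39 ± 0.09, adjusted p = 0.00459.

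The Mx pair, dynamin-like GTPases, were not lower in CD24+ cells. RefSeq lists both as transcribed pseudogenes in the B6 genome, and most inbred strains carry defective alleles. Mx1 read 8.31, 8.43, 8.22 and 8.74 in spleen CD24+ cells and 7.11, 7.21, 7.36 and 7.48 in spleen CD172a+ cells. It had the highest difference in favour of CD24+ cells among the 39 genes (1.14 ± 0.11, adjusted p = 4.23e-06), with no overlap. Mx2 read 7.47, 7.30, 7.19 and 7.25 in spleen CD24+ cells and 6.85, 7.03, 7.18 and 7.35 in spleen CD172a+ cells, and its difference was not called (0.20 ± 0.09, adjusted p = 0.117).

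The enzymes that attach and remove the ubiquitin-like protein Isg15 were split. Herc6, the mouse ligase for Isg15, read 9.05, 9.06, 8.99 and 9.25 in spleen CD24+ cells and 10.07, 10.16, 10.39 and 10.48 in spleen CD172a+ cells and was lower in CD24+ cells without overlap (-1.19 ± 0.07, adjusted p = 4.86e-08). Ube2l6, the conjugating enzyme that acts with it, read 9.53, 9.25, 9.46 and 9.59 in spleen CD24+ cells and 8.91, 8.93, 8.87 and 9.15 in spleen CD172a+ cells and was higher (0.50 ± 0.09, adjusted p = 0.00137), also without overlap. Usp18, which removes Isg15 and damps the receptor, was lower (-0.78 ± 0.08, adjusted p = 1.27e-05).

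Among enzymes that act on nucleotides and nucleic acids, 4 of 6 were lower in CD24+ cells and none was higher. Rsad2 (viperin), which makes a chain-terminating nucleotide, read 7.90, 7.58, 7.81 and 8.29 in spleen CD24+ cells and 9.90, 9.92, 10.14 and 10.49 in spleen CD172a+ cells. The groups stood far apart (-2.22 ± 0.11, adjusted p = 1.49e-08). Cmpk2, a nucleotide kinase encoded beside Rsad2 on chromosome 12, had a smaller difference (-0.77 ± 0.09, adjusted p = 4.2e-05). Ddx60, a helicase that assists RNA sensing, read 5.80, 5.63, 5.62 and 5.55 in spleen CD24+ cells and 8.05, 7.98, 8.50 and 8.28 in spleen CD172a+ cells, with a difference of -2.55 ± 0.14 (adjusted p = 4.2e-08). Isg20, an RNA exonuclease, read 9.38, 9.24, 9.01 and 9.33 in spleen CD24+ cells and 10.57, 10.79, 10.80 and 11.00 in spleen CD172a+ cells and did not overlap either (-1.55 ± 0.13, adjusted p = 1.45e-06). The Schlafen gene Slfn5 (-0.16 ± 0.09) was not called. Nor was Samd9l (-0.28 ± 0.11, adjusted p = 0.0772), which was called lower with the mouse as a replicate block (-0.28 ± 0.06, adjusted p = 0.0096).

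Rtp4, a receptor transport protein induced by interferon, had the widest gap of all. It read 6.91, 6.76, 7.05 and 7.14 in spleen CD24+ cells and 11.50, 11.16, 11.80 and 11.94 in spleen CD172a+ cells, and the difference of -4.63 ± 0.11 amounts to 24.8-fold (adjusted p = 1.34e-11). Its CD24+ signals were low, below the spleen array medians (7.29 to 7.32), as were those of Ifit1, Ddx60, Oas2 and Cmpk2. Some spleen CD24+ arrays of Ifit2, Oas3, Xaf1 and Mx2 also lay below these medians. Other membrane and trafficking proteins differed less. Ifitm3, which blocks viral fusion, was lower in CD24+ cells (-0.64 ± 0.05, adjusted p = 4.23e-07). Bst2 (tetherin), which holds budding virions at the membrane, was higher, with 12.21, 12.11, 12.16 and 12.13 in spleen CD24+ cells and 11.48, 11.61, 11.45 and 11.79 in spleen CD172a+ cells (0.57 ± 0.08, adjusted p = 0.000171). So was Tor3a, an ATPase of the endoplasmic reticulum, which read 9.52, 9.33, 9.47 and 9.62 in spleen CD24+ cells and 9.02, 8.80, 8.96 and 8.99 in spleen CD172a+ cells (0.54 ± 0.07, adjusted p = 9e-05). The arrays of neither gene overlapped between subsets, while the secreted glycoprotein Lgals3bp was not called (0.16 ± 0.07).

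The ADP-ribosyltransferases were divided as well. Parp14 (-0.97 ± 0.09, adjusted p = 4.45e-06) and Parp9 (-0.60 ± 0.07, adjusted p = 4.75e-05) were lower in CD24+ cells, and Dtx3l, the ubiquitin ligase partner of Parp9, was not called (-0.05 ± 0.07). Parp12, which restricts RNA viruses, was higher in all 4 CD24+ arrays than in any CD172a+ array, with 10.76, 10.84, 10.98 and 11.02 in spleen CD24+ cells and 10.27, 9.95, 10.16 and 10.39 in spleen CD172a+ cells (0.71 ± 0.07, adjusted p = 1.04e-05). Of the Trim ubiquitin ligases, Trim30a read 12.15, 12.30, 12.21 and 12.33 in spleen CD24+ cells and 11.53, 11.39, 11.74 and 11.80 in spleen CD172a+ cells and was higher in CD24+ cells (0.63 ± 0.06, adjusted p = 2.34e-06), while Trim21 and Trim25 were not called.

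Among proteins of PML nuclear bodies, Pml itself was higher in CD24+ cells, with 9.79, 9.86, 9.95 and 10.08 in spleen CD24+ cells and 8.92, 8.91, 8.90 and 9.13 in spleen CD172a+ cells. The arrays did not overlap (0.96 ± 0.07, adjusted p = 5.85e-07), and its partners Sp100 (-0.09 ± 0.06) and Daxx (0.13 ± 0.05) were not called. Xaf1, an antagonist of the apoptosis inhibitor XIAP, read 7.13, 6.80, 7.31 and 7.06 in spleen CD24+ cells and 8.07, 7.98, 8.52 and 8.56 in spleen CD172a+ cells and was lower in CD24+ cells (-1.20 ± 0.09, adjusted p = 4.5e-07). Ifi35 and Epsti1 were not called.

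**Figure D1:**
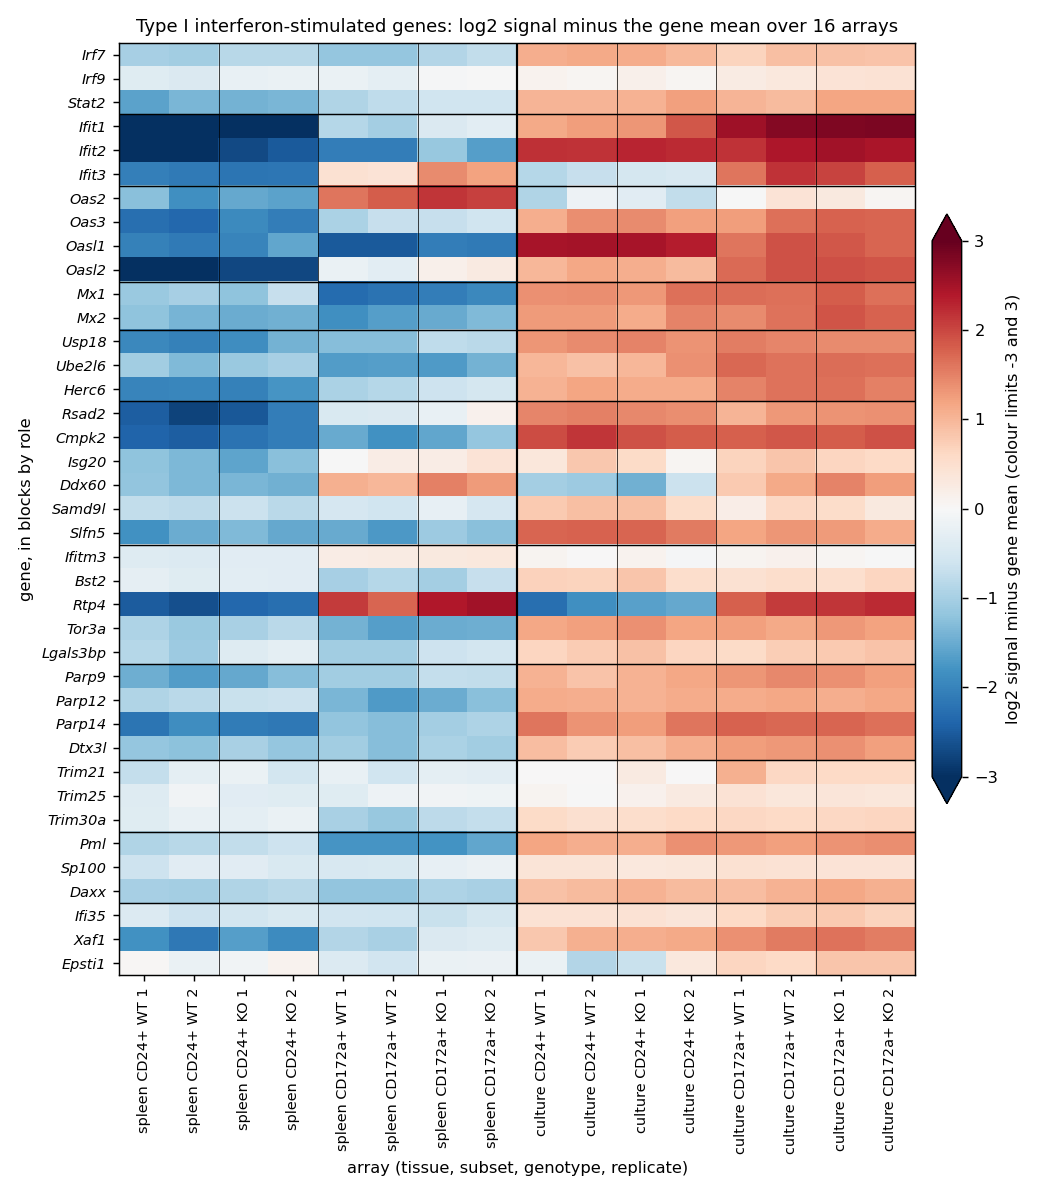
Log2 signal of each of the 39 genes in each of the 16 arrays, minus the mean of that gene over all arrays; colours stop at -3 and 3, horizontal lines separate roles, and columns are arrays by tissue, subset, genotype and replicate. In spleen, Rtp4, Ddx60, Oas2 and Ifit3 are high in the CD172a+ columns and low in the CD24+ columns, and most rows are higher in culture than in spleen.

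Other cell types in a sort can carry these transcripts, so their markers were read in the same arrays. The mean signal of 10 monocyte and macrophage markers was 7.63 to 8.01 in spleen CD24+ arrays and 8.36 to 9.09 in spleen CD172a+ arrays. The mean signal of 7 plasmacytoid DC markers ran the other way, at 8.57 to 8.76 in CD24+ and 8.10 to 8.17 in CD172a+ arrays, as did that of 7 T and NK cell markers (7.002 to 7.33 against 6.60 to 6.75). Not every marker followed its mean. Of the plasmacytoid DC markers, Ccr9, Pacsin1, Siglech and Ly6d were higher in spleen CD24+ cells in both genotypes, and Cox6a2 only in WT. Tcf4 (WT and KO means of 9.75 and 9.60 against 10.04 and 10.195) and Tlr9 (10.69 and 10.67 against 11.03 and 10.99) were higher in CD172a+ cells. Among monocyte and macrophage markers, Ccr2 was higher in CD24+ cells (9.29 and 9.235 against 7.87 and 8.07), and Vcam1 only in KO. The part of these cells in the subset differences was not tested.

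In activated culture the widest gaps were narrower than in spleen, and the CD24+ cells were again lower in more genes than they were higher. CD24+ cells were lower than CD172a+ cells in 19 genes and higher in 4, while 13.7% of all genes were called lower and 11.2% higher. The median difference was -0.26, against -0.03 over all genes. Of the 19 genes lower in CD24+ cells in spleen, 12 were also lower in culture and 7 were not called (Cmpk2, Ifit2, Ifitm3, Isg20, Rsad2, Stat2 and Usp18). Of the 8 genes higher in spleen, Oasl1 was still higher, Ube2l6 was now lower, and the other 6 were not called.

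Rtp4, Ifit3 and Ddx60 kept a wide gap in culture. Rtp4 read 7.14, 7.56, 7.78 and 7.88 in cultured CD24+ cells and 11.19, 11.51, 11.55 and 11.64 in cultured CD172a+ cells (-3.88 ± 0.11, adjusted p = 4.4e-10). For Ifit3 the arrays read 9.00, 9.18, 9.32 and 9.37 in cultured CD24+ cells and 11.46, 12.02, 11.89 and 11.66 in cultured CD172a+ cells (-2.54 ± 0.10, adjusted p = 1.55e-08). Ddx60 read 5.98, 5.89, 5.54 and 6.34 in cultured CD24+ cells and 7.78, 8.14, 8.49 and 8.24 in cultured CD172a+ cells (-2.22 ± 0.14, adjusted p = 4.97e-07). In each of the 3 genes every CD172a+ array lay above every CD24+ array, as in spleen.

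Other genes lower in cultured CD24+ cells had gaps of 1.34 or less. Ifit1 read 11.09, 11.22, 11.29 and 11.82 in cultured CD24+ cells and 12.50, 12.72, 12.76 and 12.79 in cultured CD172a+ cells (-1.34 ± 0.12, adjusted p = 5.96e-06). Epsti1, which had not been called in spleen, read 10.69, 10.01, 10.22 and 11.22 in cultured CD24+ cells and 11.53, 11.49, 11.73 and 11.73 in cultured CD172a+ cells. Its CD24+ arrays were widely spread and all lay below the CD172a+ arrays (-1.09 ± 0.19, adjusted p = 0.000899). Oasl2 read 11.67, 11.82, 11.75 and 11.62 in cultured CD24+ cells and 12.37, 12.58, 12.60 and 12.56 in cultured CD172a+ cells (-0.81 ± 0.06, adjusted p = 2.35e-06), and Oas2 read 7.64, 8.38, 8.19 and 7.82 in cultured CD24+ cells and 8.53, 8.94, 8.84 and 8.59 in cultured CD172a+ cells (-0.72 ± 0.17, adjusted p = 0.00739). Neither gene overlapped between the subsets.

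Further genes of the ubiquitin and Isg15 systems followed. Trim21, a cytosolic antibody receptor and ubiquitin ligase, read 8.92, 8.93, 9.18 and 8.94 in cultured CD24+ cells and 9.99, 9.54, 9.52 and 9.51 in cultured CD172a+ cells (-0.65 ± 0.13, adjusted p = 0.00209). Ube2l6 read 11.57, 11.45, 11.57 and 11.95 in cultured CD24+ cells and 12.31, 12.22, 12.25 and 12.23 in cultured CD172a+ cells (-0.61 ± 0.09, adjusted p = 0.000376), opposite to spleen. Xaf1 read 9.76, 10.03, 10.05 and 10.09 in cultured CD24+ cells and 10.33, 10.50, 10.59 and 10.49 in cultured CD172a+ cells (-0.50 ± 0.09, adjusted p = 0.00106), Herc6 12.05, 12.21, 12.13 and 12.13 in cultured CD24+ cells and 12.50, 12.64, 12.68 and 12.52 in cultured CD172a+ cells (-0.45 ± 0.07, adjusted p = 0.00036), and Mx2 9.95, 9.96, 9.80 and 10.18 in cultured CD24+ cells and 10.10, 10.30, 10.57 and 10.45 in cultured CD172a+ cells (-0.38 ± 0.09, adjusted p = 0.0063). Only Mx2 of these overlapped between the subsets. Dtx3l, Oas3, Parp9, Parp14, Ifi35, Irf9 and Trim25 were also called lower, by 0.26 to 0.37. Some of these calls rested on single arrays. Trim25 was lost without CD24+ KO replicate 1 (-0.22), CD172a+ WT replicate 1 (-0.24) or CD24+ WT replicate 2 (-0.24). Oas3 was lost without CD172a+ KO replicate 1 (-0.31) or 2 (-0.32), CD24+ WT replicate 1 (-0.24), CD172a+ WT replicate 2 (-0.22) or CD24+ KO replicate 2 (-0.27). Parp14 kept its call only without CD24+ WT replicate 1 or CD24+ KO replicate 2 and lost it without any of the other 6 cultured arrays (-0.29 to -0.18), and also with the mouse as a replicate block (-0.27 ± 0.09, adjusted p = 0.0602).

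The genes higher in cultured CD24+ cells were Oasl1, Slfn5, Samd9l and Irf7. Oasl1 read 13.30, 13.33, 13.32 and 13.20 in cultured CD24+ cells and 12.45, 12.75, 12.70 and 12.59 in cultured CD172a+ cells (0.67 ± 0.09, adjusted p = 0.000125). Slfn5 read 13.03, 13.05, 13.02 and 12.83 in cultured CD24+ cells and 12.47, 12.60, 12.55 and 12.39 in cultured CD172a+ cells (0.48 ± 0.09, adjusted p = 0.00157), and Irf7 13.20, 13.25, 13.24 and 13.08 in cultured CD24+ cells and 12.79, 13.02, 12.99 and 12.98 in cultured CD172a+ cells (0.25 ± 0.06, adjusted p = 0.00904), all 3 without overlap. Samd9l read 12.37, 12.47, 12.49 and 12.14 in cultured CD24+ cells and 11.78, 12.19, 12.13 and 11.87 in cultured CD172a+ cells, with overlap (0.38 ± 0.11, adjusted p = 0.0215), and its call was lost without CD24+ KO replicate 1 (0.29), CD172a+ WT replicate 1 (0.27), CD24+ WT replicate 2 (0.35) or CD172a+ KO replicate 2 (0.31). Stat2 read 12.42, 12.40, 12.43 and 12.61 in cultured CD24+ cells and 12.41, 12.35, 12.58 and 12.57 in cultured CD172a+ cells and was nearly equal between the cultured subsets (-0.01 ± 0.06). Irf9 read 10.43, 10.40, 10.48 and 10.39 in cultured CD24+ cells and 10.59, 10.65, 10.75 and 10.76 in cultured CD172a+ cells and was slightly lower in CD24+ cells (-0.26 ± 0.05, adjusted p = 0.00101).

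**Figure D2:**
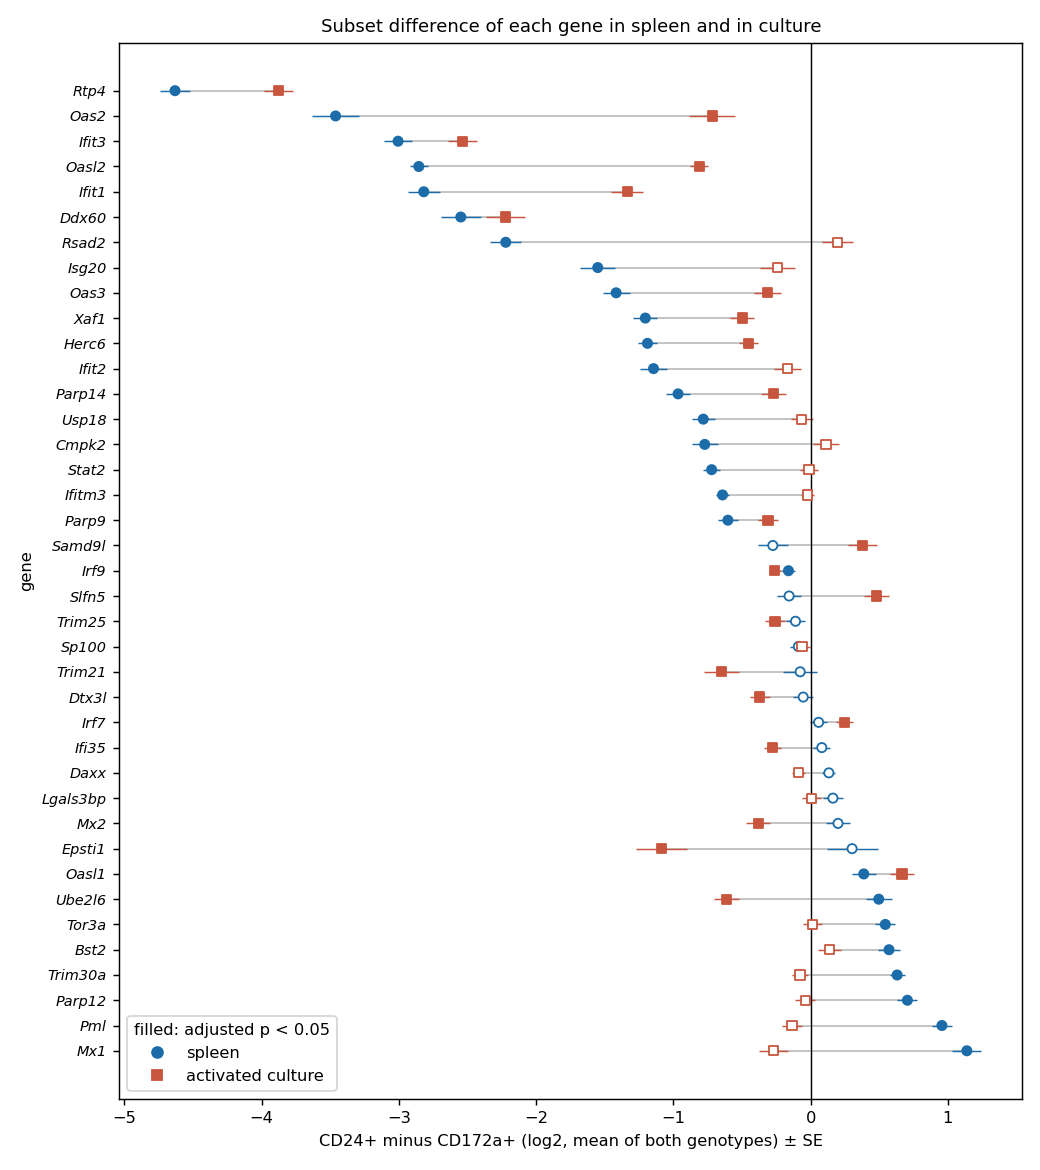
Difference CD24+ minus CD172a+ (log2, mean of both genotypes) of each gene in spleen (circles) and activated culture (squares), with its SE; filled symbols have an adjusted p under 0.05, and the grey line joins the values of a gene. Most squares lie closer to 0 than the circles, while Rtp4 (-4.63 and -3.88), Ifit3 (-3.01 and -2.54) and Ddx60 (-2.55 and -2.22) stay far to the left.

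The change of the subset difference was itself tested, as the difference in culture minus that in spleen. It was called positive in 18 and negative in 13 of the 39 genes, while 12.5% and 15.7% of all genes were called positive and negative. The median was 0.29, against -0.06 over all genes. The gap was smaller in culture for 18 of the 19 genes that had been lower in spleen CD24+ cells (median -1.20 in spleen and -0.31 in culture) and for 6 of the 8 that had been higher (0.60 and -0.06). Since these genes were chosen by their spleen call, the medians are a description.

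The largest positive changes were those of Oas2 (2.74 ± 0.24, adjusted p = 4.22e-06), Rsad2 (2.42 ± 0.16, adjusted p = 3.6e-07), Oasl2 (2.04 ± 0.09, adjusted p = 1.15e-08), Ifit1 (1.48 ± 0.17, adjusted p = 3.38e-05) and Isg20 (1.31 ± 0.18, adjusted p = 0.000173). In Rsad2 the gap closed: its cultured arrays read 11.83, 11.88, 11.79 and 11.76 in cultured CD24+ cells and 11.39, 11.65, 11.70 and 11.74 in cultured CD172a+ cells, and the cultured subsets differed by 0.20 ± 0.11. Isg20 read 10.92, 11.38, 11.16 and 10.63 in cultured CD24+ cells and 11.25, 11.40, 11.22 and 11.17 in cultured CD172a+ cells (-0.24 ± 0.13). Oas3, Ifit2, Cmpk2, Rtp4, Herc6, Usp18 and Stat2 followed with changes of 0.71 to 1.10. Among genes with a negative change, Mx1 moved most (-1.41 ± 0.15, adjusted p = 2.13e-05), from higher in spleen CD24+ cells to 10.80, 10.82, 10.72 and 11.08 in cultured CD24+ cells and 11.09, 11.09, 11.25 and 11.09 in cultured CD172a+ cells (-0.27 ± 0.11, not called). Epsti1 (-1.39 ± 0.26, adjusted p = 0.00172), Ube2l6 (-1.11 ± 0.13, adjusted p = 5.1e-05) and Pml (-1.09 ± 0.10, adjusted p = 6.83e-06) came next, Pml reading 11.88, 11.79, 11.78 and 12.07 in cultured CD24+ cells and 11.998, 11.92, 12.04 and 12.10 in cultured CD172a+ cells. Parp12, Trim30a, Mx2, Trim21, Tor3a, Bst2, Ifi35 and Dtx3l changed by -0.74 to -0.32.

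In several of these genes a higher CD24+ signal in spleen gave way to nearly equal signals in culture. Trim30a, a Trim protein known from Toll-like receptor signalling, read 13.08, 13.00, 13.05 and 13.11 in cultured CD24+ cells and 13.14, 13.11, 13.13 and 13.16 in cultured CD172a+ cells, against 12.15, 12.30, 12.21 and 12.33 in spleen CD24+ cells and 11.53, 11.39, 11.74 and 11.80 in spleen CD172a+ cells. Bst2 read 13.15, 13.13, 13.30 and 13.01 in cultured CD24+ cells and 12.93, 13.01, 12.99 and 13.11 in cultured CD172a+ cells, so that its cultured subsets overlapped. In others a small spleen difference turned into a lower CD24+ signal. Trim21 read 8.21, 8.61, 8.71 and 8.37 in spleen CD24+ cells and 8.69, 8.31, 8.61 and 8.59 in spleen CD172a+ cells. Ifi35, a nuclear and cytosolic interferon-induced protein, read 11.02, 10.81, 10.89 and 10.98 in spleen CD24+ cells and 10.86, 10.84, 10.77 and 10.90 in spleen CD172a+ cells, and 11.86, 11.86, 11.87 and 11.81 in cultured CD24+ cells and 12.03, 12.17, 12.21 and 12.10 in cultured CD172a+ cells. Dtx3l read 9.94, 9.85, 10.11 and 9.92 in spleen CD24+ cells and 10.05, 9.80, 10.13 and 10.05 in spleen CD172a+ cells, and 12.02, 11.85, 11.998 and 12.18 in cultured CD24+ cells and 12.34, 12.40, 12.46 and 12.33 in cultured CD172a+ cells. The cultured CD24+ and CD172a+ arrays of Trim21, Ifi35 and Dtx3l did not overlap.

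Ifit3 changed by 0.47 ± 0.15 (adjusted p = 0.0313), but from WT arrays alone the change was -0.13. The Ifit3 call was lost (0.41 to 0.48) without any of 8 of the 16 arrays: CD24+ WT replicate 2 or CD172a+ KO replicate 2 of culture, and, of spleen, CD172a+ KO replicate 1, either CD24+ KO, either CD172a+ WT or CD24+ WT replicate 2. Dtx3l, Trim21 and Daxx were each lost without any of 10 of the 16 arrays. Dtx3l kept its call only without CD24+ WT replicate 1, CD172a+ KO replicate 2 or CD24+ KO replicate 2 of culture, or CD24+ KO replicate 2, CD172a+ WT replicate 1 or CD24+ WT replicate 2 of spleen (-0.34 to -0.25 where it was lost). Trim21 kept it only without either CD24+ KO or CD172a+ WT replicate 2 of culture, or CD24+ KO replicate 2, CD172a+ WT replicate 1 or CD24+ WT replicate 1 of spleen (-0.58 to -0.46 where it was lost). Daxx kept it only without CD24+ KO replicate 1, CD172a+ WT replicate 1, CD24+ WT replicate 2 or CD172a+ KO replicate 2 of culture, or CD172a+ KO replicate 1 or CD24+ KO replicate 1 of spleen (-0.22 to -0.19 where it was lost). Irf7 (0.19 ± 0.09) and Irf9 (-0.10 ± 0.06) were not called.

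Between spleen and activated culture nearly the whole group was higher in culture, in both subsets. Of the 39 genes, 37 were called higher and none lower in CD24+ cells, and 35 higher and 2 lower in CD172a+ cells. The shares of all genes called were 13.8% higher and 65.3% lower in CD24+ cells, and 16.6% higher and 60.2% lower in CD172a+ cells. The median change of the genes was 2.00 in CD24+ and 1.89 in CD172a+ cells, against -0.34 and -0.28 over all genes. These contrasts set gamma interferon, LPS, culture with Flt3l, the organ of origin and a possible separate normalization of the tissues against spleen all at once, and their parts cannot be told apart. Relative to the median gene, every change given below is thus larger by 0.34 in CD24+ and by 0.28 in CD172a+ cells.

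How the arrays are scaled sets the split of calls over all genes, but not that of the group. As deposited, 17.4% of all calls in CD24+ cells and 21.6% in CD172a+ cells were higher in culture. After quantile normalization over the 16 arrays the shares were 54.4% and 56.9%, and after centring each array on its median 61.5% and 62.6%. The group then had 38 genes higher and 0 lower in CD24+ cells under both, and 36 higher and 2 lower (quantile) or 38 higher and 1 lower (centred) in CD172a+ cells. Every call of the 39 genes as deposited was also kept in each fit without 1 array of the subset.

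Ifit2 rose most in both subsets. It went from 7.07, 7.18, 7.57 and 7.77 in spleen CD24+ cells and 8.21, 8.20, 9.13 and 8.61 in spleen CD172a+ cells to 12.47, 12.46, 12.56 and 12.52 in cultured CD24+ cells and 12.45, 12.71, 12.80 and 12.72 in cultured CD172a+ cells. No cultured array lay near a spleen array, and the rise was 5.11 ± 0.10 in CD24+ cells (34.4-fold, adjusted p = 9.62e-13) and 4.13 ± 0.10 in CD172a+ cells (17.5-fold, adjusted p = 3.05e-12). Ifit1 rose by 4.87 ± 0.12 in CD24+ and 3.39 ± 0.12 in CD172a+ cells. Ifit3, already high in spleen CD172a+ cells, rose by 1.50 ± 0.10 and 1.03 ± 0.10.

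Oasl1 rose nearly as much in both subsets, by 4.37 ± 0.09 in CD24+ and 4.09 ± 0.09 in CD172a+ cells. Oasl2 rose by 3.93 ± 0.06 and 1.89 ± 0.06, and Oas3, which read 10.64, 10.95, 10.96 and 10.76 in cultured CD24+ cells and 10.79, 11.19, 11.31 and 11.29 in cultured CD172a+ cells, by 3.44 ± 0.10 and 2.33 ± 0.10. Oas2 did not follow its family. It rose by 1.02 ± 0.17 in CD24+ cells (adjusted p = 0.000124) and was lower in every cultured than in every spleen CD172a+ array, with a difference of -1.73 ± 0.17 (adjusted p = 1.12e-06). That fall was also called after quantile normalization and after centring.

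The subsets rose unequally in several genes. Rsad2 rose by 3.93 ± 0.11 in CD24+ and 1.51 ± 0.11 in CD172a+ cells. Its neighbour Cmpk2 went from 6.81, 6.72, 6.99 and 7.14 in spleen CD24+ cells and 7.69, 7.38, 7.64 and 8.04 in spleen CD172a+ cells to 11.17, 11.35, 11.11 and 11.03 in cultured CD24+ cells and 11.00, 11.07, 11.02 and 11.12 in cultured CD172a+ cells, with rises of 4.25 ± 0.09 and 3.37 ± 0.09. Neither gene overlapped between spleen and culture in either subset. The order was opposite in 7 of the 8 genes that had been higher in spleen CD24+ cells, all but Oasl1. The 3 with the widest difference between the rises were Mx1, Pml and Ube2l6. Mx1 rose by 2.43 ± 0.11 in CD24+ and 3.84 ± 0.11 in CD172a+ cells, Pml by 1.96 ± 0.07 and 3.05 ± 0.07, and Ube2l6 by 2.18 ± 0.09 and 3.29 ± 0.09. The difference between the rises of the subsets is the same quantity as the tested change of the subset difference.

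The other genes among the 12 largest rises of a subset encode mainly enzymes and antiviral effectors. Parp14 went from 8.30, 8.63, 8.38 and 8.34 in spleen CD24+ cells and 9.30, 9.21, 9.46 and 9.55 in spleen CD172a+ cells to 12.09, 11.83, 11.75 and 12.09 in cultured CD24+ cells and 12.26, 12.20, 12.23 and 12.14 in cultured CD172a+ cells, a rise of 3.53 ± 0.09 in CD24+ and 2.83 ± 0.09 in CD172a+ cells. Slfn5 rose from 9.45, 9.79, 9.94 and 9.73 in spleen CD24+ cells and 9.77, 9.56, 10.19 and 10.03 in spleen CD172a+ cells by 3.25 ± 0.09 and 2.61 ± 0.09. Usp18 went from 9.80, 9.69, 9.85 and 10.31 in spleen CD24+ cells and 10.45, 10.45, 10.95 and 10.92 in spleen CD172a+ cells to 13.04, 13.13, 13.21 and 13.06 in cultured CD24+ cells and 13.25, 13.18, 13.13 and 13.13 in cultured CD172a+ cells, and thus rose by 3.20 ± 0.08 and 2.48 ± 0.08. In none of these genes did a cultured array overlap with a spleen array of its subset. Herc6 rose by 3.04 ± 0.07 and 2.31 ± 0.07, Xaf1 by 2.91 ± 0.09 and 2.20 ± 0.09, and Mx2 by 2.67 ± 0.09 and 3.25 ± 0.09. Tor3a went to 11.60, 11.66, 11.82 and 11.61 in cultured CD24+ cells and 11.68, 11.59, 11.73 and 11.64 in cultured CD172a+ cells, a rise of 2.19 ± 0.07 and 2.72 ± 0.07, and Parp12 to 12.77, 12.75, 12.70 and 12.76 in cultured CD24+ cells and 12.77, 12.81, 12.74 and 12.81 in cultured CD172a+ cells, a rise of 1.85 ± 0.07 and 2.59 ± 0.07. A further 12 genes (Isg20, Bst2, Lgals3bp, Trim21, Trim25, Trim30a, Samd9l, Parp9, Dtx3l, Sp100, Daxx and Ifi35) were all called higher in both subsets. Their rises went from 0.42 (Trim25) to 2.52 (Parp9) in CD24+ cells and from 0.47 (Isg20) to 2.37 (Dtx3l) in CD172a+ cells.

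The factors rose unequally. Stat2 rose by 2.51 ± 0.06 in CD24+ cells (adjusted p = 6.34e-12) and 1.80 ± 0.06 in CD172a+ cells. Irf7 rose by 2.00 ± 0.06 and 1.81 ± 0.06. Irf9 rose by 0.40 ± 0.05 and 0.49 ± 0.05, and its cultured arrays did not overlap with the spleen arrays of either subset.

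A few genes moved little or not at all in the values as deposited. Epsti1, whose spleen arrays read 10.93, 10.69, 10.79 and 11.00 in spleen CD24+ cells and 10.49, 10.33, 10.69 and 10.70 in spleen CD172a+ cells, changed by -0.32 ± 0.19 in CD24+ cells (adjusted p = 0.131) and rose by 1.07 ± 0.19 in CD172a+ cells. Ddx60 changed by 0.29 ± 0.14 in CD24+ (adjusted p = 0.0857) and -0.04 ± 0.14 in CD172a+ cells (adjusted p = 0.804). On other scalings Ddx60 was called higher in both subsets, by 0.68 (adjusted p = 0.000703) and 0.59 (adjusted p = 0.00192) after quantile normalization and by 0.75 (adjusted p = 0.000346) and 0.38 (adjusted p = 0.0226) after centring each array on its median. Rtp4 rose by 0.62 ± 0.11 in CD24+ cells, where the arrays overlapped, and changed by -0.13 ± 0.11 in CD172a+ cells (adjusted p = 0.287), where centring gave a call of 0.30 (adjusted p = 0.0188) and quantile normalization -0.09. In Ddx60 and Rtp4 the CD24+ arrays stayed below the CD172a+ arrays of the same tissue. The CD24+ signals of Ddx60 were low in both tissues, with group means of 5.59 to 5.94. Ifitm3 read 12.81, 12.78, 12.85 and 12.84 in spleen CD24+ cells and 13.41, 13.44, 13.49 and 13.50 in spleen CD172a+ cells, and 13.27, 13.20, 13.29 and 13.15 in cultured CD24+ cells and 13.27, 13.31, 13.24 and 13.18 in cultured CD172a+ cells. It rose by 0.41 ± 0.05 in CD24+ cells and was called lower in CD172a+ cells as deposited (-0.21 ± 0.05, adjusted p = 0.00118), a direction that turned to 0.21 after centring each array on its median.

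**Figure D3:**
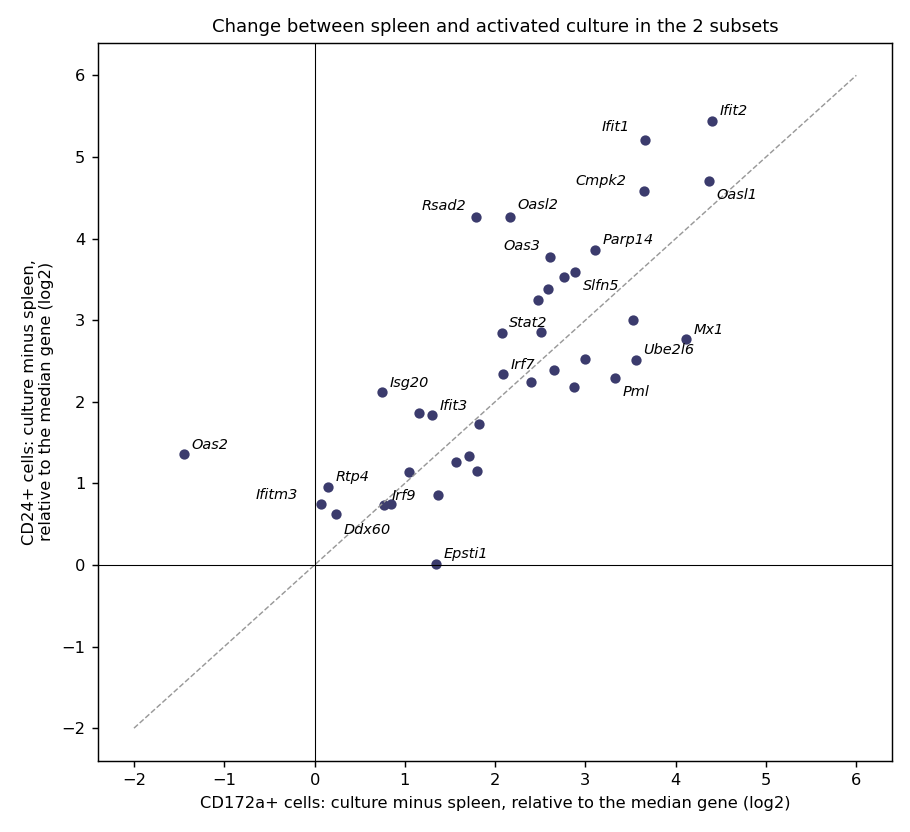
Change from spleen to activated culture of each of the 39 genes, relative to the median change of all genes (log2), in CD172a+ cells (horizontal axis) and CD24+ cells (vertical axis); the dashed line marks equal change, and selected genes are named. Ifit2, Ifit1, Oasl1 and Cmpk2 lie at the top, Rsad2 and Oasl2 lie above the line, Mx1, Pml and Ube2l6 below it, and Oas2 is to the left of 0.

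**Figure D4:**
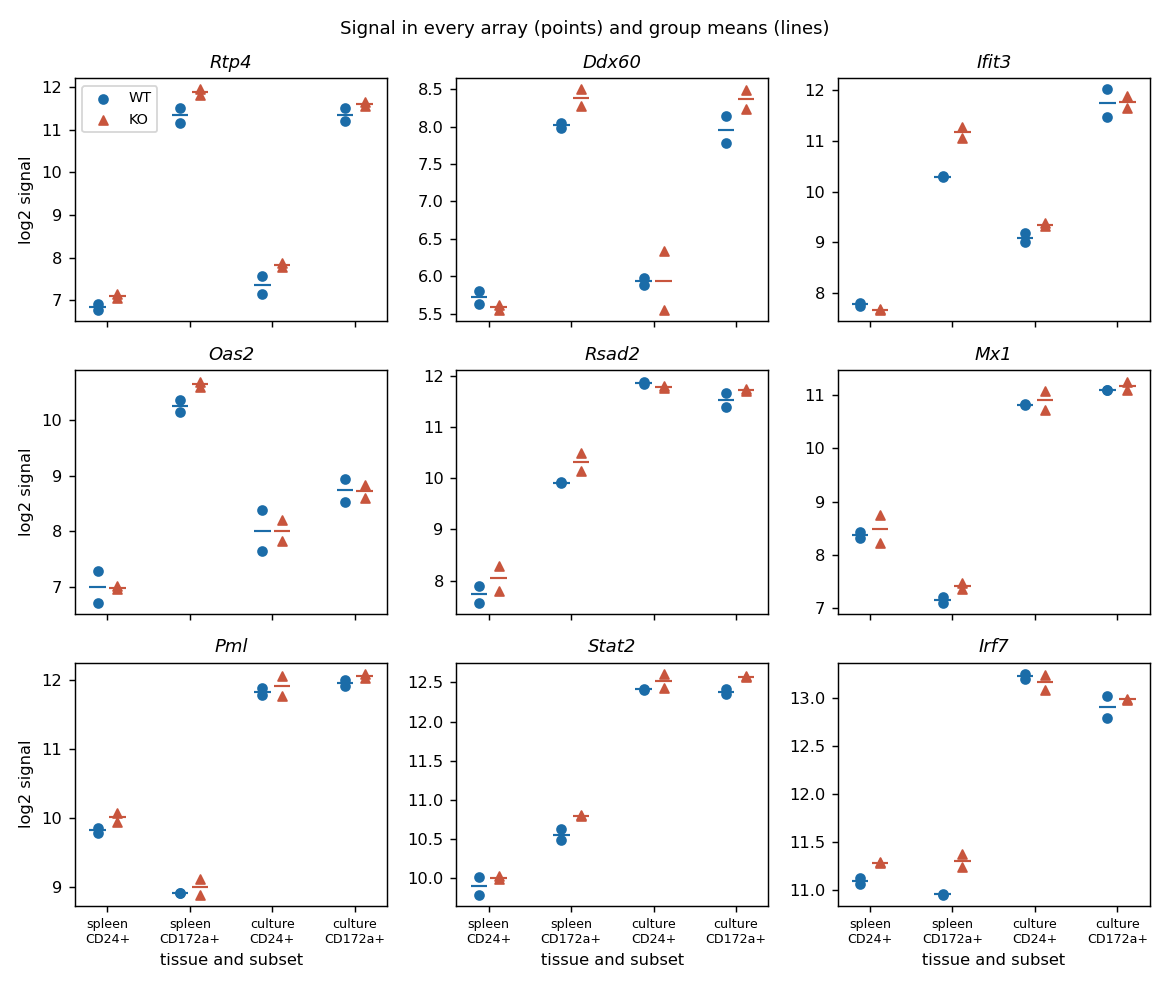
Log2 signal of 9 of the genes in every array, by tissue and subset (WT circles, KO triangles; lines are group means of 2 arrays; each panel has its own vertical axis, which does not start at 0). Rtp4, Ddx60 and Ifit3 keep the subset gap in culture, Rsad2, Mx1, Pml and Stat2 lose most of it, and Oas2 falls in cultured CD172a+ cells.

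The genotype comparison asks which transcripts of the programme differ between the Ciita KO and WT mice. None of the 39 genes was called between KO and WT in any of the 4 tissue and subset pairs. The shares of all genes called were 0.0602% in spleen CD24+, 0.0802% in spleen CD172a+, 0.0953% in cultured CD24+ and 0.0602% in cultured CD172a+ cells, so few genes of any kind passed. Fits on the mean of the 2 arrays of each mouse gave no call in spleen or in culture either, where 0.0752% and 0.0652% of all genes were called. Below the threshold the group was nevertheless shifted upwards in the KO spleen, mainly in CD172a+ cells, as the counts and values that follow describe. There were 2 mice per genotype and tissue, and the 39 genes are not independent of each other, so their counts are a description of these mice.

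In spleen CD172a+ cells 38 of the 39 genes had a higher mean in KO than in WT, Ifi35 being the exception, and 30 had both KO arrays above both WT arrays. The share of all genes with that separation was 18.2%, and 9833 of the 19938 genes had a higher mean in KO. At an unadjusted p under 0.05, 21 of the 39 genes passed, all higher in KO, against 413 higher and 628 lower of the 19938 genes. The median change of the group was 0.29 and that of all genes 0.00. Leaving out each of the 4 arrays in turn gave medians of 0.25 to 0.31.

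Ifit3 changed most in these cells: the WT arrays read 10.31 and 10.28 and the KO arrays 11.28 and 11.06. The genotypes were well apart, at 0.87 ± 0.15 (unadjusted p = 6.99e-05, adjusted p = 0.0741). It passed in a fit of the spleen arrays alone (0.87, adjusted p = 0.00519), after quantile normalization (0.99, adjusted p = 0.00963), and without either cultured CD172a+ WT array, which enters only the estimate of the spread (adjusted p = 0.00465). Ifit2 read 8.21 and 8.20 in WT and 9.13 and 8.61 in KO arrays (0.67 ± 0.14, adjusted p = 0.24), and passed without KO replicate 2 (0.93). Ifit1 read 9.09 and 8.94 in WT and 9.53 and 9.65 in KO arrays (0.57 ± 0.17, adjusted p = 0.619). In Rtp4 the WT arrays read 11.50 and 11.16 and the KO arrays 11.80 and 11.94 (0.54 ± 0.15, adjusted p = 0.59). All 4 genes had both KO arrays above both WT arrays, and so did Usp18 (0.48), which passed without either spleen CD24+ KO array (adjusted p = 0.0482). The factors changed less: Irf7 by 0.35 ± 0.09 (adjusted p = 0.409), Stat2 by 0.25 ± 0.09 (adjusted p = 0.818) and Irf9 by 0.23 ± 0.06 (adjusted p = 0.604), each without overlap.

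In spleen CD24+ cells the shift was smaller. The mean was higher in KO in 31 of the 39 genes. Both KO arrays lay above both WT arrays in 15 and below them in 3, while 17.7% of all genes had both KO arrays above. Of the 19938 genes, 10289 had a higher mean in KO, 3524 had both KO arrays above and 3266 had both below. At an unadjusted p under 0.05, 10 genes passed, all higher in KO, against 530 higher and 371 lower among all genes. The median change was 0.13, against 0.00 over all genes, and 0.10 to 0.19 without any 1 of the 4 arrays. Lgals3bp changed most, with 10.88 and 10.66 in WT and 11.36 and 11.45 in KO arrays (0.63 ± 0.10, adjusted p = 0.0544). It passed after quantile normalization (0.68), with a trended and robust variance prior (0.63), and without either cultured CD24+ KO array (0.63). Its cultured arrays read 12.38, 12.51, 12.62 and 12.40 in cultured CD24+ cells and 12.31, 12.47, 12.52 and 12.60 in cultured CD172a+ cells. Ifit2 read 7.07 and 7.18 in WT and 7.57 and 7.77 in KO arrays (0.54 ± 0.14, adjusted p = 0.73). Ifit1 read 6.46 and 6.08 in WT and 6.57 and 6.83 in KO arrays (0.43 ± 0.17, adjusted p = 1). Usp18 read 9.80 and 9.69 in WT and 9.85 and 10.31 in KO arrays (0.34 ± 0.12, adjusted p = 0.952). In these 4 genes the genotypes did not overlap, and Usp18 passed without KO replicate 1 (0.56). Stat2 (0.10 ± 0.09), Irf9 (0.19 ± 0.06) and Irf7 (0.19 ± 0.09) were not called.

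Markers of other cells were read in the same spleen arrays. The mean of 10 neutrophil markers was 6.37 to 7.13 in the WT and 6.92 to 8.36 in the KO CD24+ arrays, the highest value being that of KO replicate 2, and without that array the median change of the group was 0.10. In CD172a+ arrays it was 6.26 to 6.32 in WT and 6.25 to 6.64 in KO. The monocyte and macrophage markers averaged 8.52 to 9.09 in WT and 8.36 to 8.80 in KO CD172a+ arrays, and the 7 plasmacytoid DC markers 8.12 to 8.17 and 8.10 to 8.13. In neither of these last sets did both KO arrays lie above both WT arrays. The 5 erythroid markers averaged 7.02 to 7.03 in WT and 6.77 to 7.50 in KO CD24+ arrays. The part of these cells in the shift was not tested.

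Averaged per mouse over both subsets, all 39 genes were higher in the KO than in the WT spleen mice, by 0.0024 (Ifi35) to 0.60 (Ifit2), with a median of 0.19 against 0.00 over all genes. Of all 19938 genes, 10057 were higher in the KO mice. None of the 39 was called, and 21 passed an unadjusted p under 0.05, all higher, against 411 higher and 411 lower among all genes. The smallest adjusted p were those of Ifit2 (0.60 ± 0.07, adjusted p = 0.0669) and Lgals3bp (0.55 ± 0.07, adjusted p = 0.0898), followed by Ifit1 (0.50 ± 0.13, adjusted p = 0.943) and Usp18 (0.41 ± 0.08, adjusted p = 0.428) in size of change. Irf7 gave 0.27 ± 0.07, Irf9 0.21 ± 0.05 and Stat2 0.17 ± 0.07. Ifit2 passed when either KO culture mouse was left out of the shared estimate of the spread (0.60 in both cases), and Lgals3bp after quantile normalization (0.60).

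In activated culture the group was close to 0. In CD24+ cells 24 of 39 genes were higher in KO, with a median of 0.04 against 0.00 over all genes. Both KO arrays lay above both WT arrays in 9 and below in 4, against 15.3% of all genes above. Of the 19938 genes, 9632 were higher in KO, 3054 had both KO arrays above and 3078 had both below. At an unadjusted p under 0.05, 2 passed, both higher in KO, against 851 higher and 555 lower among all genes. The largest changes were those of Rtp4, from 7.14 and 7.56 in WT to 7.78 and 7.88 in KO arrays (0.48 ± 0.15, adjusted p = 0.577), and of Ifit1, from 11.09 and 11.22 to 11.29 and 11.82 (0.40 ± 0.17, adjusted p = 0.66), neither of which overlapped. Epsti1 gave 0.37 ± 0.26, adjusted p = 0.863, with overlap, and ranged from -0.14 without KO replicate 2 to 0.87 without KO replicate 1. Ifit3 gave 0.26 ± 0.15, adjusted p = 0.781. Without KO replicate 1 Epsti1 and Ifit1 (0.66) passed, in a fit that then called 1269 genes in all. Irf7 (-0.06 ± 0.09), Irf9 (0.02 ± 0.06) and Stat2 (0.11 ± 0.09) were not called.

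In cultured CD172a+ cells 27 of 39 genes were higher in KO, with a median of 0.05 against 0.02 over all genes. Both KO arrays lay above both WT arrays in 13 and below in 5, against 21.8% of all genes above. Of the 19938 genes, 11431 were higher in KO, 4350 had both KO arrays above and 2884 had both below. At an unadjusted p under 0.05, 3 passed, all higher in KO, against 810 higher and 512 lower among all genes. Ddx60 changed most, from 7.78 and 8.14 to 8.49 and 8.24 (0.40 ± 0.20, adjusted p = 0.782). Mx2 went from 10.10 and 10.30 to 10.57 and 10.45 (0.31 ± 0.12, adjusted p = 0.688), and Oas3 from 10.79 and 11.19 to 11.31 and 11.29 (0.31 ± 0.14, adjusted p = 0.742). Trim21 was the one of the 4 largest that was lower in KO, from 9.99 and 9.54 to 9.52 and 9.51 (-0.25 ± 0.18, adjusted p = 0.872). The genotypes did not overlap in any of the 4. Stat2 (0.19 ± 0.09), Irf9 (0.14 ± 0.06) and Irf7 (0.08 ± 0.09) were not called. Per mouse, 27 of 39 genes were higher in KO in culture, against 10587 of all 19938 genes. Of the 39, 2 passed an unadjusted p under 0.05 (1022 higher and 522 lower among all genes). The median was 0.06 against 0.01 over all genes. The 4 largest per mouse were Rtp4 (0.36 ± 0.13), Epsti1 (0.29 ± 0.18), Ifit1 (0.28 ± 0.13) and Ddx60 (0.21 ± 0.10), beside Stat2 (0.15 ± 0.07), Irf9 (0.08 ± 0.05) and Irf7 (0.01 ± 0.07).

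**Figure D5:**
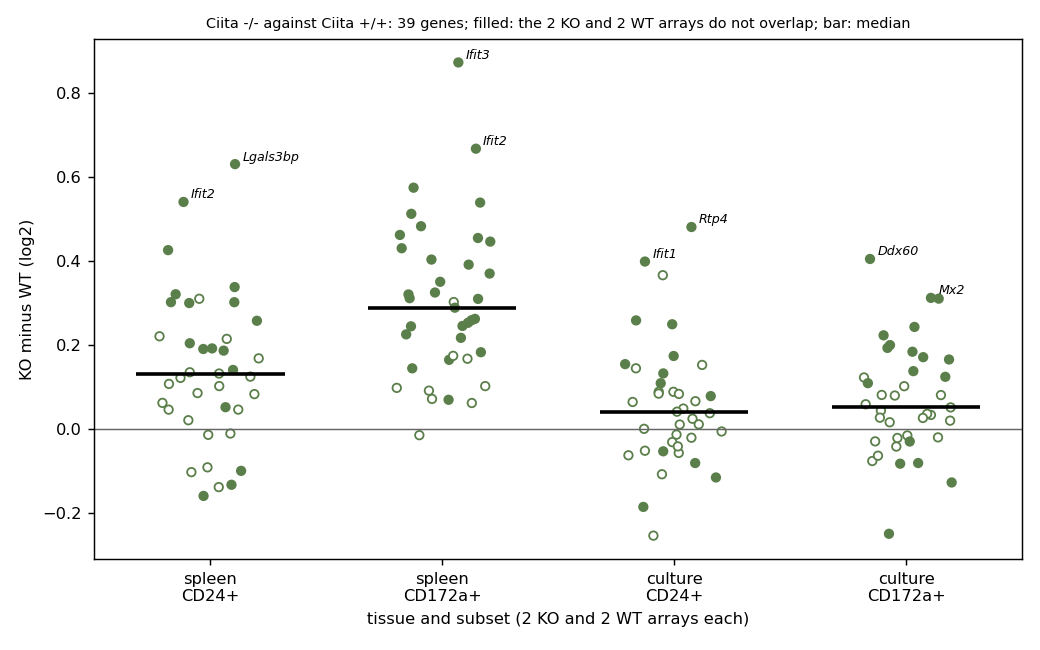
Difference KO minus WT (log2) of each of the 39 genes in the 4 tissue and subset pairs, each from 2 KO and 2 WT arrays; filled points are genes whose KO and WT arrays do not overlap, points are spread sideways for legibility, and bars are medians. The medians are 0.13 and 0.29 in spleen CD24+ and CD172a+ cells and 0.04 and 0.05 in culture, and no point has an adjusted p under 0.05.

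Whether the genotype effect differed between tissues or subsets was tested directly. The effect in culture mice minus that in spleen mice had a median of -0.16 over the group, against 0.01 over all genes, and was below 0 in 32 of 39 genes, against 9400 of 19938. None of the 39 was called, where 0.00502% of all genes were, and 9 passed an unadjusted p under 0.05, all of them negative, against 625 positive and 368 negative among all genes. The 4 largest were Ifit2 (-0.47 ± 0.10, adjusted p = 0.932), Lgals3bp (-0.43 ± 0.10, adjusted p = 0.932), Usp18 (-0.43 ± 0.11, adjusted p = 0.932) and Slfn5 (-0.42 ± 0.12, adjusted p = 0.932), while Irf7 gave -0.26 ± 0.09, Irf9 -0.13 ± 0.08 and Stat2 -0.02 ± 0.10. A smaller shift in culture than in spleen was thus not called for any single gene.

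The genotype effect in CD24+ minus that in CD172a+ cells of the same mice had a median of -0.14 in spleen, against 0.01 over all genes, and was below 0 in 31 of 39 genes, against 9394 of 19938. None was called, where again 0.00502% of all genes were, and 4 passed an unadjusted p under 0.05, all negative, against 545 positive and 372 negative among all genes. Ifit3 had the largest value (-0.97 ± 0.16, adjusted p = 0.5), since its KO arrays were higher in CD172a+ cells and slightly lower in CD24+ cells (-0.10 ± 0.15). Ddx60 (-0.50 ± 0.29), Mx2 (-0.48 ± 0.18) and Oas2 (-0.41 ± 0.22) came next, beside Irf7 (-0.16 ± 0.12), Stat2 (-0.14 ± 0.11) and Irf9 (-0.04 ± 0.10). In culture the median was -0.02 over the group and over all genes. None of the 39 genes was called or passed an unadjusted p under 0.05, where 0.0401% of all genes were called. The largest values there were Ddx60 (-0.39 ± 0.29, and 0.13 without culture KO replicate 1), Trim21 (0.38 ± 0.26), Rsad2 (-0.28 ± 0.14) and Mx2 (-0.28 ± 0.18), and Irf7 (-0.14 ± 0.12), Irf9 (-0.11 ± 0.10) and Stat2 (-0.08 ± 0.11) stayed near 0.

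The interferon ligands changed by less than 1 on the log2 scale in every one of these comparisons. Of 20 listed interferon genes 15 were measured, among them Ifng and Ifnl2, which are not type I interferons. Ifnb1, the interferon beta that LPS induces, had group means of 6.53 to 6.78 in all 8 groups. These lie below the array medians (6.85 to 6.92 in culture and 7.29 to 7.32 in spleen). Most other ligands were also below them, while Ifna5 and Ifnl2 were above. A small change in so low a signal says little about the transcript. Between spleen and culture it changed by -0.01 ± 0.05, adjusted p = 0.876 in CD172a+ cells and by 0.15 ± 0.05, adjusted p = 0.0242 in CD24+ cells. Between spleen and culture 3 ligands were called higher and 7 lower in CD24+ cells, and 3 higher and 6 lower in CD172a+ cells, the largest change being that of Ifng (-0.89 ± 0.15 and -0.70 ± 0.15). The shares called lower are below those of all genes (65.3% and 60.2%), of which 13.8% and 16.6% were called higher. Between subsets 1 ligand was called in each tissue, Ifna9 in spleen (0.23 ± 0.05, adjusted p = 0.00451) and Ifnb1 in culture (0.17 ± 0.05, adjusted p = 0.0332), both higher in CD24+ cells. Of all genes, 15.6% were called higher and 13.4% lower in spleen CD24+ cells, and 11.2% higher and 13.7% lower in culture. No ligand was called between genotypes in the limma fits, and at an unadjusted p under 0.05 there were 2 in cultured CD24+ cells and 0 in the other 3 pairs. Of all 19938 genes 1406 passed in cultured CD24+, 901 in spleen CD24+, 1041 in spleen CD172a+ and 1322 in cultured CD172a+ cells.

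Of 16 listed receptors and signalling proteins, 15 were measured. In spleen 3 were higher and 5 lower in CD24+ than in CD172a+ cells, where 15.6% of all genes were higher and 13.4% lower. Irf8, a factor required for cDC1 cells, differed most (3.90 ± 0.09, adjusted p = 1.04e-11), followed by the phosphatase Ptpn6 (-0.88 ± 0.09), Tyk2 (0.65 ± 0.07) and Jak2 (-0.56 ± 0.06). In culture, where these shares were 11.2% and 13.7%, 8 were higher and 2 lower, led by the receptor chains Ifnar1 (1.49 ± 0.10, adjusted p = 5.36e-07), Ifngr1 (1.01 ± 0.16) and Ifngr2 (0.69 ± 0.07). Between spleen and culture 10 rose and 2 fell in CD24+ cells, and 6 rose and 6 fell in CD172a+ cells, against 13.8% and 65.3% of all genes in CD24+ and 16.6% and 60.2% in CD172a+ cells. Irf1, a transcription factor induced by interferons, rose by 2.98 ± 0.09 and 2.74 ± 0.09, and Ifngr1, the gamma interferon receptor chain, fell (-2.98 ± 0.16 and -3.69 ± 0.16). Irf8 rose by 4.20 ± 0.09 in CD172a+ cells. No gene of this set was called between genotypes, and 2 passed an unadjusted p under 0.05, both in cultured CD24+ cells. There 1406 of all 19938 genes passed.

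A second set held 43 measured interferon-stimulated genes of 51 listed. In spleen 28 were lower and 5 higher in CD24+ cells (median -0.46), in culture 16 and 6 (median -0.14). Of all genes, 13.4% were lower and 15.6% higher in spleen, and 13.7% lower and 11.2% higher in culture. The viral RNA sensors were the extremes: in spleen Tlr7 (-5.48 ± 0.20, adjusted p = 8e-10) and Ddx58, which encodes RIG-I (-4.00 ± 0.12, adjusted p = 1.36e-10), were higher in CD172a+ cells, while Tlr3 was higher in CD24+ cells (4.31 ± 0.14, adjusted p = 2e-10). Ddx58 thus shares the direction of Rtp4, Ifit3 and Ddx60, also in culture (-2.79 ± 0.12, adjusted p = 2.41e-08). Between spleen and culture 33 rose and 3 fell in CD24+ cells and 29 rose and 8 fell in CD172a+ cells, where 13.8% and 16.6% of all genes rose. The largest rise in CD24+ cells was that of Helz2 (4.25 ± 0.09) and that in CD172a+ cells was Cxcl10 (4.25 ± 0.12). None was called between genotypes, and 5, 7, 3 and 10 passed an unadjusted p under 0.05 in spleen CD24+, spleen CD172a+, cultured CD24+ and cultured CD172a+ cells. Of the 19938 genes 901, 1041, 1406 and 1322 did so. In spleen CD172a+ cells 39 of the 43 had a higher mean in KO, against 9833 of all 19938 genes. The median of the 43 was 0.16. At an unadjusted p under 0.05 there were 6 higher and 1 lower, against 413 higher and 628 lower among all genes.

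Of 20 listed genes that respond mainly to gamma interferon, 12 were measured. Between spleen and culture 11 rose in CD24+ cells and all 12 rose in CD172a+ cells, where 13.8% and 16.6% of all genes rose. The GTPases Iigp1 (5.84 ± 0.18 and 6.97 ± 0.18) and Gbp5 (4.48 ± 0.07 and 4.53 ± 0.07) led. None was called between genotypes. In spleen CD172a+ cells 4 passed an unadjusted p under 0.05, all higher in KO, against 0 in the other pairs. Of all 19938 genes, 413 higher and 628 lower passed in spleen CD172a+ cells. The mean level of the 12 genes there was 8.50 to 8.55 in WT and 8.70 to 8.79 in KO arrays. All 15 listed LPS response genes were measured: 14 rose and 1 fell in CD24+ cells, and 11 rose and 3 fell in CD172a+ cells, with Il6 the largest rise (5.81 ± 0.13 and 6.50 ± 0.13). Of all genes, 13.8% rose and 65.3% fell in CD24+ cells, and 16.6% rose and 60.2% fell in CD172a+ cells. None of them was called between genotypes, and 1 or 2 passed an unadjusted p under 0.05 in each pair. Among all 19938 genes 901 passed in spleen CD24+, 1041 in spleen CD172a+, 1406 in cultured CD24+ and 1322 in cultured CD172a+ cells. Which agent raised the 39 genes was not tested.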

How the data were processed

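Total RNA of each sorted population was amplified with the Ovation Pico WTA System and read on 1 array, per the labels' protocols. The authors deposited 1 log2 signal for each probe set and array, between 3.06 and 14.55. The unit was read from the values; their background correction, normalization and summarization are not stated in the sources used. Array medians within a tissue were nearly equal and differed between tissues, so the tissues may have been normalized separately, which shifts every culture against spleen difference. Of 30177 probe sets, 21789 had 1 gene symbol (21698 named through the Entrez ID), 1621 had several and 6767 had none. The probe set with the highest mean stood for a gene (999 genes had more than 1), which left 19938 genes.

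Tests were run with limma 3.58.1 in R 4.3.3 and were 2-sided. A fit of 8 group means to the 16 arrays (residual degrees of freedom 8, prior 3.95) yielded the subset, culture and genotype contrasts. Fits to the mean of, and to the difference between, the 2 arrays of each mouse gave the genotype contrasts per mouse and by subset. P-values were adjusted by Benjamini-Hochberg over all genes. They rest on the spread between arrays within a group, or between mice within a group in the fits per mouse. A difference shared by all arrays of a tissue, such as a separate normalization, is not part of that spread. Arrays of one mouse entered the array fit as independent. The replicate number pairs CD24+ and CD172a+ arrays because the source names give the same mouse; after removing group means, the paired arrays correlated across genes at -0.0957 (spleen WT), 0.202 (spleen KO), 0.205 (culture WT) and 0.393 (culture KO). KO and WT mice are different animals.

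The genes, the other lists and the markers were chosen with earlier results of these data known. Named with tests in each comparison were the 12 largest called changes in each direction, the 4 largest where fewer than 4 were called, and Irf7, Irf9 and Stat2, with up to 4 genes of each other list; Samd9l in spleen and Usp18 in spleen CD172a+ cells were added because an alternative changed their call. Alternatives were quantile normalization, centring on array medians, a filter on dim genes, the mean of a gene's probe sets, all probe sets tested, a trended and robust variance prior, 1 tissue alone, replicate and mouse blocks, 1 genotype alone and leaving out each array or mouse. Promoters and gene positions come from RefSeq, build GRCm38.p6, and the array's own build was not used.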

Additional observations from a re-analysis of the deposited data

Results flagged for a closer look

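The difference between CD24+ and CD172a+ cells was not the same in resting spleen and in activated culture for 31 of the 39 genes, by the limma test of the change itself (difference in culture minus that in spleen, log2, 4 arrays a subset in each tissue). The change was positive, that is towards CD24+ cells, for Oas2 (2.74), Rsad2 (2.42), Oasl2 (2.04), Ifit1 (1.48), Isg20 (1.31), Oas3 (1.10), Ifit2 (0.98), Cmpk2 (0.88), Rtp4 (0.75), Herc6 (0.74), Usp18 (0.72), Stat2 (0.71), Xaf1 (0.71), Parp14 (0.70), Samd9l (0.65), Slfn5 (0.64), Ifitm3 (0.62) and Ifit3 (0.47). It was negative, towards CD172a+ cells, for Mx1 (-1.41), Epsti1 (-1.39), Ube2l6 (-1.11), Pml (-1.09), Parp12 (-0.74), Trim30a (-0.71), Mx2 (-0.58), Trim21 (-0.57), Tor3a (-0.53), Bst2 (-0.43), Ifi35 (-0.36), Dtx3l (-0.32) and Daxx (-0.22). Between the same groups the mean of the 10 cDC2 markers went from 7.74 to 8.01 against 10.12 to 10.21 in spleen to 6.73 to 6.84 against 7.02 to 7.30 in culture, with Clec12a higher in CD24+ cells in both tissues. Sirpa, the sort marker, kept WT and KO group means of 8.41 and 8.76 against 11.22 and 11.23 in culture, and Irf4 8.78 and 9.45 against 10.81 and 10.88. The cultured WT means of Clec10a (4.80 against 5.00), Mgl2 (5.56 against 5.60), Esam (6.56 against 6.53), Csf1r (6.68 against 6.72) and Cd209a (6.28 against 6.49) lay close together. Itgam and Clec4a4 kept a smaller gap in WT. The part of these markers in the changes was not tested.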

How the results depend on the processing

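Counts of called genes among the 39 stayed within 1.5 times under every alternative run, except as follows. The culture subset count was 14 from KO arrays only, against 23, and the count for the change of the subset difference was 20 from WT arrays only, against 31; each uses fewer arrays. Between genotypes, where no gene was called, 1 gene passed after quantile normalization in spleen CD24+ cells (Lgals3bp), in spleen CD172a+ cells (Ifit3) and in spleen mice (Lgals3bp). Lgals3bp was also the 1 gene called in spleen CD24+ cells with the trended and robust prior, and Ifit3 the 1 called in spleen CD172a+ cells when the spleen was fitted alone. Leaving out 1 array or mouse gave 0 to 1 genes in each of these 3 comparisons: Usp18 (0.56) without spleen CD24+ KO replicate 1 and Lgals3bp without either cultured CD24+ KO array; Ifit2 (0.93) without spleen CD172a+ KO replicate 2, Ifit3 without either cultured CD172a+ WT array and Usp18 (0.48) without either spleen CD24+ KO array; and Ifit2 (0.60) without either culture KO mouse. It gave 0 to 2 genes in cultured CD24+ cells, Ifit1 (0.66) and Epsti1 (0.87) without KO replicate 1. The direction turned for Ifit3 in the change of the subset difference from WT arrays only (-0.13), for Ifitm3 in culture against spleen CD172a+ cells after centring (0.21), for Epsti1 between genotypes in cultured CD24+ cells over the leave-one-out fits (-0.14 to 0.87) and for Ddx60 in the genotype by subset contrast of culture (-0.92 to 0.13). The replicate block left 28 subset calls in spleen, 22 in culture and 31 for their change, 37 in each culture against spleen contrast and 0 between genotypes; beyond Samd9l in spleen and Parp14 in culture it changed no call of the 39 genes. The cause of these shifts was not tested. With 2 arrays a group, the small number of arrays limits the precision, and all 39 genes passed the dim filter at 7.15.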

Other observations

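Genes that lie beside each other did not always move together. Rsad2 and Cmpk2 are neighbours on chromosome 12, and in spleen the subset difference was -2.22 ± 0.11 for Rsad2 and -0.77 ± 0.09 for Cmpk2 (CD24+ minus CD172a+, log2, limma), while in culture it was 0.20 ± 0.11 and 0.11 ± 0.09. Parp9 and Dtx3l, neighbours on chromosome 16 whose proteins form one complex, differed by -0.60 ± 0.07 and -0.05 ± 0.07 in spleen and by -0.31 ± 0.07 and -0.37 ± 0.07 in culture. Oasl2 and Oasl1 had opposite signs in both tissues, -2.86 ± 0.06 and 0.39 ± 0.09 in spleen and -0.81 ± 0.06 and 0.67 ± 0.09 in culture. The differences between the members of a pair were not tested.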
